A study of Mus musculus with 16 samples.

Results

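The 40 genes described here are interferon-stimulated genes, a list chosen by name and not by any peak value. Earlier results of these data were known when it was chosen. All 40 were found by symbol in the RefSeq annotation of the mouse genome (GRCm38), among 21631 protein-coding genes and 49554 genes of all kinds on chromosomes 1 to 19 and X. RefSeq classed 37 of them as protein-coding and 3 (Mx1, Mx2 and Cxcl11) as transcribed pseudogenes. H3K27me3, a repressive methylation of histone H3 written by the EZH2 enzyme, had been mapped by chromatin immunoprecipitation and sequencing (ChIP-seq). For each gene the share of a window inside H3K27me3 peaks was measured. The window was the gene body plus 5 kb on each side. Windows of 8 members overlapped that of another member, so the 40 genes made up 36 separate regions.

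The cells were splenic B cells from C57BL/6 mice of 6 to 8 weeks, purified with magnetic CD43 beads. The mice were wild type (WT) or an Ifih1/Rigi/cGAS triple mutant, which carries mutations in genes for cytosolic sensors of RNA and DNA. All cells were held for 48 hours in medium with 2 ng/mL BAFF and 2 ng/mL IL-4, with 1 µM of the EZH2 inhibitor GSK343 or with DMSO, its solvent. The labels do not say which alleles the mutant carries or whether replicates came from separate mice. The 16 samples formed 8 groups of 2, with ChIP and input DNA kept as separate groups. Each genotype and treatment had 1 deposited peak list that reads as called on pooled replicates. By their peak names, the mutant lists may instead rest on replicate 1.

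No list had a replicate, so each comparison below describes lists and was not tested. The read depth is unknown. The lists held 39495 peaks under DMSO and 11903 under GSK343 for WT, and 49803 and 10847 for the mutant. As a check of the cell type, 8 of 8 B cell markers, among them Cd79a and Pax5, had no peak in the 4 lists. Of 8 T cell markers 7 had a peak in each DMSO list, and Cd3e was covered over 64.8% of its window in WT DMSO and 86.9% in mutant DMSO. Of 8 myeloid markers 5 had a peak in WT DMSO and 6 in mutant DMSO.

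Type I interferon binds its receptor and activates the kinases JAK1 and TYK2, which phosphorylate STAT proteins. STAT2 then joins IRF9 in a complex that binds the interferon-stimulated response element (ISRE) in promoters. Interferon gamma acts through gamma-activated sites. The induced genes encode antiviral effectors, chemokines, parts of the antigen-processing machinery and regulators of the response itself. The cytosolic sensors mutated here act upstream of this pathway. EZH2 belongs to Polycomb repressive complex 2, whose H3K27me3 typically lies over silent genes with CpG-rich promoters.

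Most interferon-stimulated genes, like most protein-coding genes, carried little or no H3K27me3. In WT DMSO 12 of the 40 windows (30.0%) were overlapped by at least 1 bp of a peak, against 43.5% of protein-coding genes. In mutant DMSO 18 windows (45.0%) were overlapped, against 48.9% of protein-coding genes. Under GSK343 the numbers were 4 windows (10.0%) in WT, against 26.3%, and 5 windows (12.5%) in mutant cells, against 24.4%. Since long genes are overlapped more often, each member was also set beside its 200 nearest protein-coding neighbours by gene length. Those gave 42.8% under DMSO and 25.0% under GSK343 in WT cells, and 48.2% and 23.0% in the mutant. The members' share was thus below both backgrounds in each of the 4 lists, by the narrowest margin in mutant DMSO.

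The mean covered share over the 40 windows was 7.55% under DMSO and 1.12% under GSK343 in WT cells, and 9.96% and 1.05% in the mutant. The length-matched genes had means of 11.0%, 4.51%, 14.3% and 3.77% in the same order. All protein-coding genes had means of 8.40%, 3.14%, 11.4% and 2.62%. The median was 0% for the members, the matched genes and all protein-coding genes alike in each list. A few genes therefore made up the members' mean. A window covered by 10% or more was found for 9 members (22.5%) in WT DMSO and 10 (25.0%) in mutant DMSO, against 20.8% and 26.7% of protein-coding genes. Under GSK343 it was found for Isg15 alone in WT (2.5%, against 8.56%) and for Isg15 and Irf7 in the mutant (5.0%, against 7.37%). Counting gene bodies alone, the members' mean in WT DMSO was 9.51%, above the 8.71% of all protein-coding genes. In the other lists it was below, at 10.1% against 11.3% in mutant DMSO. Under GSK343 it was 0% against 3.92% in WT and 0.19% against 3.45% in mutant cells.

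**Figure D1:**
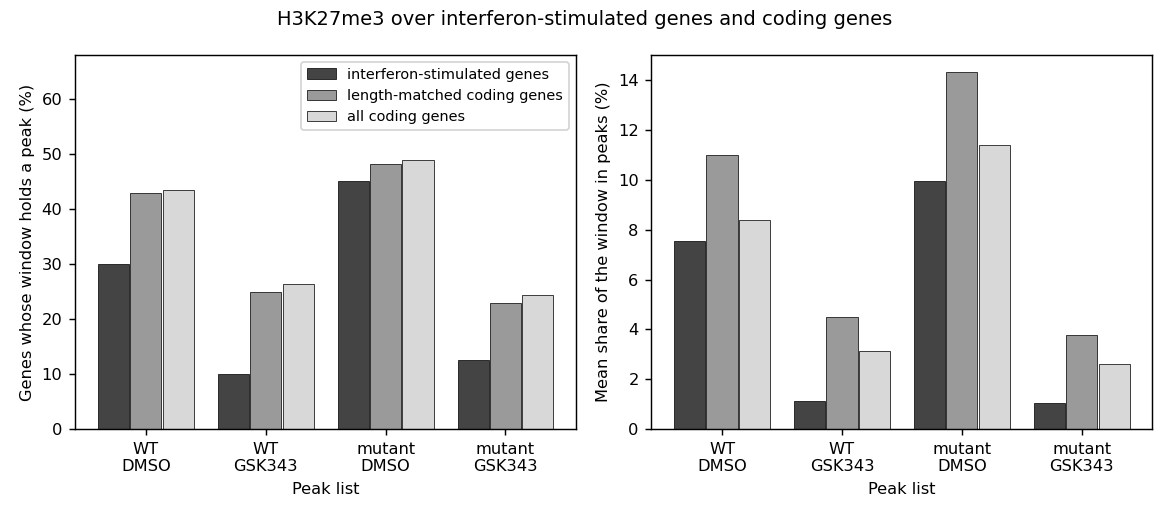
Bars show the percentage of genes whose window holds a peak (left) and the mean percentage of the window inside peaks (right) in each of the 4 peak lists, for the 40 members, their 200 nearest protein-coding genes in length, and all protein-coding genes. The members' bar is the lowest of the 3 in each list and in both panels, and stands at 10.0% of genes in WT GSK343.

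A total of 21 members had no peak in the 4 lists, 7 had one in a single list, 7 in 2 lists, 2 in 3 lists and 3 in all 4. In at least 1 list 19 members (47.5%) were overlapped, against 50.4% of protein-coding genes. The 6 members with a peak in both DMSO lists and in neither GSK343 list were Ifit2, Oas2, Ifitm1, Ifitm2, Ifitm3 and Cxcl11. Cxcl9 and Rtp4 had peaks in both DMSO lists and in mutant GSK343, Irf7, Isg15 and Xaf1 had peaks throughout, and Ifit1 had one in WT DMSO alone. Cxcl10 had its peaks in WT GSK343 and mutant DMSO. The remaining 6, Oas1a, Oas3, Usp18, Gbp2, Isg20 and Lgals3bp, were overlapped in mutant DMSO alone.

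**Figure D2:**
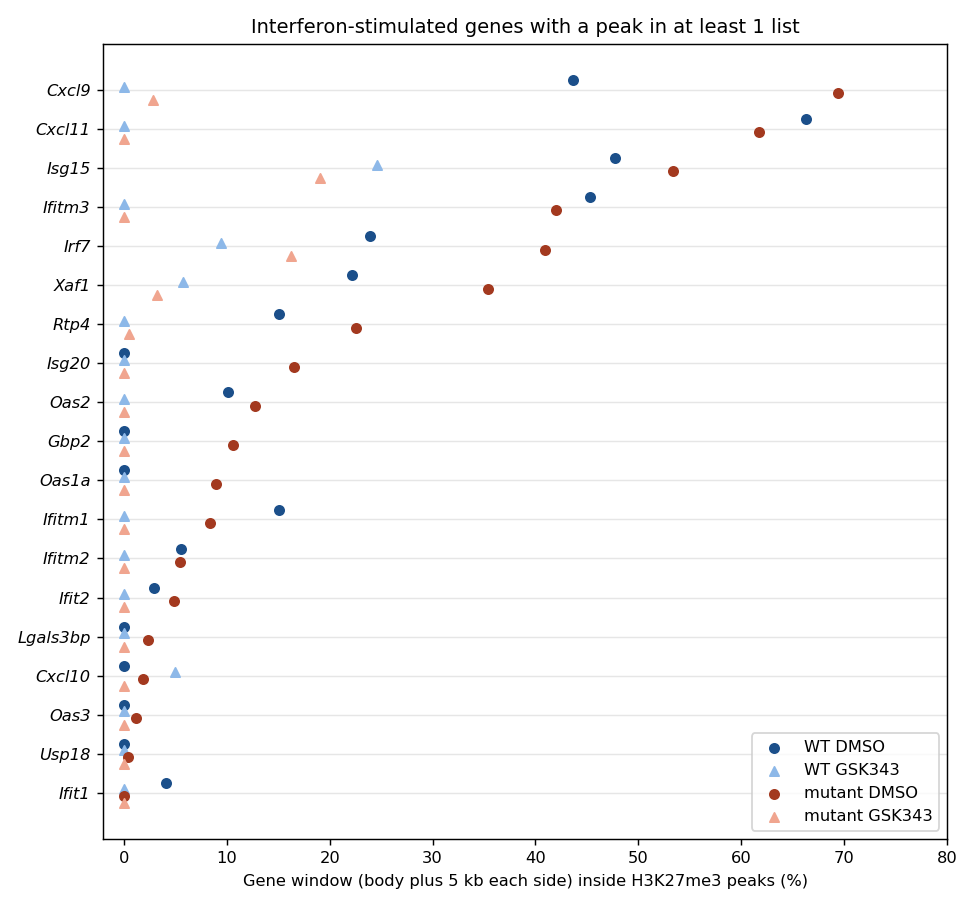
Each row is 1 of the 19 members with a peak in at least 1 list, ordered by mutant DMSO, and the horizontal axis is the percentage of its window inside peaks; circles are DMSO lists and triangles GSK343 lists, blue for WT and red for mutant. Triangles lie at or near 0% except for Isg15, Irf7, Xaf1, Cxcl10 in WT and Cxcl9 in mutant cells, while circles reach 69.4% at Cxcl9.

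Promoter sequences of some members are shown as examples, and motif counts over all member promoters with an entry follow below. They are the 250 bases before the RefSeq start site (GRCm38.p6), printed 5′ to 3′ on the gene's strand. Capitals mark matches to the core of the ISRE, which is TTTC, any 2 bases and TTTC again, or to TTCNNNGAA, the gamma-activated site, searched on both strands. Isg15 (chr4:156200819-156201068, minus strand), Ifitm3 (chr7:141010745-141010994, minus) and Cxcl9 (chr5:92328080-92328329, minus) had the highest covered shares in WT DMSO among members with a promoter entry. Gbp3 (chr3:142559794-142560043, plus) and Rsad2 (chr12:26456453-26456702, minus), each given here for its ISRE matches, had no peak in the 4 lists.
Isg15: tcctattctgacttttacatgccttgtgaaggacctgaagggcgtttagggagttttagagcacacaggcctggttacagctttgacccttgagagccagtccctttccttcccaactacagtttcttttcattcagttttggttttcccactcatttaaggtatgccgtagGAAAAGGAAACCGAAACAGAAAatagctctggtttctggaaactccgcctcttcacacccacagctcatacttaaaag
Ifitm3: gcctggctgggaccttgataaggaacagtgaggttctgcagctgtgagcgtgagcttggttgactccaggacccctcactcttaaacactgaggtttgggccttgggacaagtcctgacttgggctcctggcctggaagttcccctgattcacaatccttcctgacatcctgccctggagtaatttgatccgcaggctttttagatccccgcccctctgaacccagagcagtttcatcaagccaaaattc
Cxcl9: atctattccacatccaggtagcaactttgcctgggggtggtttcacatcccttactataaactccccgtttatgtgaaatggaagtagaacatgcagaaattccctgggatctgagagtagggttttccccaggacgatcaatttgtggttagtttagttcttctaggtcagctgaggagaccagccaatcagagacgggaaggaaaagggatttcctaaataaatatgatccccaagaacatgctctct
Gbp3: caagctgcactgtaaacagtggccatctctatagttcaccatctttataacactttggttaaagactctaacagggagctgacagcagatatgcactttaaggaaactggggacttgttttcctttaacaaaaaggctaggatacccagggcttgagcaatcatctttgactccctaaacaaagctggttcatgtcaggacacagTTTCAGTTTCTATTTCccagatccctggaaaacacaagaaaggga
Rsad2: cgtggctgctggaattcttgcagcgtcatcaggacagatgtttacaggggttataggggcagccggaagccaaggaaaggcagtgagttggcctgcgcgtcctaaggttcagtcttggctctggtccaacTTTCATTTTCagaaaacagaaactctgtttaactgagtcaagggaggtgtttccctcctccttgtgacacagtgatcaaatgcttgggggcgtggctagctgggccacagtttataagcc
The run of capitals in Isg15 holds 3 overlapping ISRE matches, and that in Gbp3 holds 2. Rsad2 has 1 match. A second Gbp3 promoter (chr3:142560106-142560355), not printed, holds neither motif. Since Gbp3 and Rsad2 were picked for their matches, these examples do not compare motifs between covered and uncovered genes. The stretches shown for Ifitm3 and Cxcl9 hold neither motif, and the matches counted below for Ifitm3 reach past its start site.

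RefSeq promoters, taken as 250 bases before to 50 bases after the start, were matched for 32 of the 40 members and gave 39 promoters. The ISRE core was found in 15 of the 39 (38.5%), against 3.38% of 21045 promoters of protein-coding genes. The gamma-activated site was found in 8 (20.5%), against 7.76%. Places where both motifs overlap were counted for each. With and without a peak in the gene's window the share of promoters with the ISRE core was 8 of 18 and 7 of 21. A match is a description of the sequence and does not show that a factor binds there.

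CpG dinucleotides were scarce in members' promoters. The median ratio of observed to expected CpG was 0.27, against 0.574 over all protein-coding promoters. A ratio of at least 0.6 was reached by 4 of the 39 promoters (10.3%), against 48.1%. Those 4 belonged to Stat2 (0.834), Irf1 (0.912 and 1.02) and Trim25 (0.616), and the windows of these 3 genes held no peak. Promoters of members whose window held a peak ran from 0.0551 to 0.55. In WT DMSO a peak overlapped 3 of the 39 promoters (7.69%), against 20.3% of protein-coding promoters. In mutant DMSO it overlapped 5 (12.8%), against 22.2%. Neither GSK343 list overlapped any of the 39, against 13.6% of protein-coding promoters in WT and 12.6% in mutant cells. Over all protein-coding promoters, the median CpG ratio was 0.689 for those overlapped in WT GSK343 and 0.39 for those overlapped in WT DMSO but not in WT GSK343. The mutant values were 0.682 and 0.40.

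**Figure D3:**
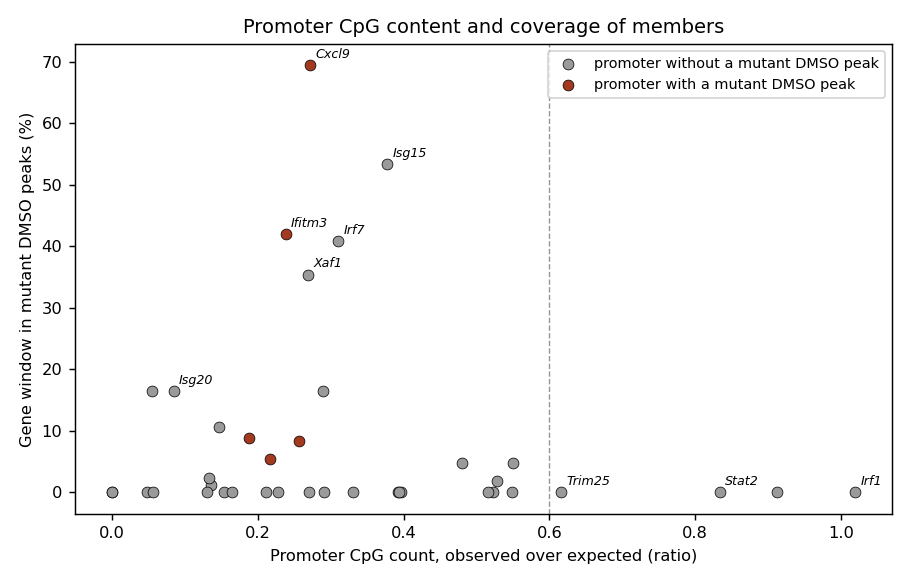
Each point is 1 of the 39 RefSeq promoters of members, placed by its observed over expected CpG ratio (horizontal) and the percentage of the gene's window inside mutant DMSO peaks (vertical); red points are promoters that a mutant DMSO peak overlaps. The 4 promoters at or right of the dashed line at 0.6 belong to Trim25, Stat2 and Irf1 and sit at 0%, and the 5 red points lie between 0.188 and 0.271.

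Of the 4 members that encode transcription factors of the interferon response, 3 had no peak and Irf7 had peaks in each list. Stat2 (chromosome 10, 128270498 to 128292853), Irf9 (chromosome 14, 55603985 to 55610030) and Irf1 (chromosome 11, 53770014 to 53778374) had no peak in their windows. STAT2 and IRF9 are subunits of the ISRE-binding complex, and IRF1 is a factor induced mainly by interferon gamma. The nearest WT DMSO peak lay 45.5 kb from the body of Stat2, 25.4 kb from Irf1 and 6.67 kb from Irf9.

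Irf7, which encodes the factor that amplifies type I interferon production (chromosome 7, 141263183 to 141266499), was the member of these 4 with peaks. Its window was covered by 23.9% under DMSO and 9.47% under GSK343 in WT cells, and 40.9% and 16.2% in the mutant. Most of that length lay upstream, in a peak that ran into the neighbouring gene Cdhr5. This peak had a width of 6.79 kb and a fold over background of 3.84 in WT DMSO, a fold above that of 96.5% of peaks in the list. Under GSK343 the peak over Cdhr5 was 1.26 kb wide in WT and 5.16 kb wide in mutant cells. The Irf7 body itself was covered by 0% in 3 lists and by 19.1% in mutant DMSO, from a peak with a fold of 2.17. No peak in the 4 lists reached the Irf7 start site, and the nearest edge was 0.51 kb away, in mutant DMSO.

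The chemokines CXCL9, CXCL10 and CXCL11 attract T cells through the receptor CXCR3, and their genes lie side by side on chromosome 5. Cxcl9 (92321331 to 92328079) was covered over 43.6% of its window under DMSO and 0% under GSK343 in WT cells, and 69.4% and 2.85% in the mutant. In WT DMSO 4 peaks made up that coverage, and 1 of them, of 4.42 kb, spanned the start site. In mutant DMSO a single peak of 11.6 kb covered the whole gene body. What remained in mutant GSK343 was a peak of 477 bp in the body, which ended 0.113 kb short of the start site.

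Cxcl11 (92359544 to 92363296) had the highest coverage of the members in WT DMSO, at 66.3% of its window, and 61.7% in mutant DMSO. Neither GSK343 list had a peak there. The body was covered in full in WT DMSO and over 75.6% in mutant DMSO. Cxcl11 is a transcribed pseudogene in this annotation of the C57BL/6J genome, in which the reading frame is known to be broken.

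Cxcl10 (92346638 to 92348889), which lies between them, was nearly free of peaks. Its window was covered by 0% under DMSO and 5.0% under GSK343 in WT cells, and 1.89% and 0% in the mutant. The WT GSK343 peak was 613 bp wide, lay 4.26 kb from the gene and had a fold of 2.72, above that of 15.4% of the list. In mutant DMSO the peak was 232 bp wide with a fold of 2.12. The gene Art3 overlaps Cxcl10 and Cxcl11, so peaks there lie in both.

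**Figure D4:**
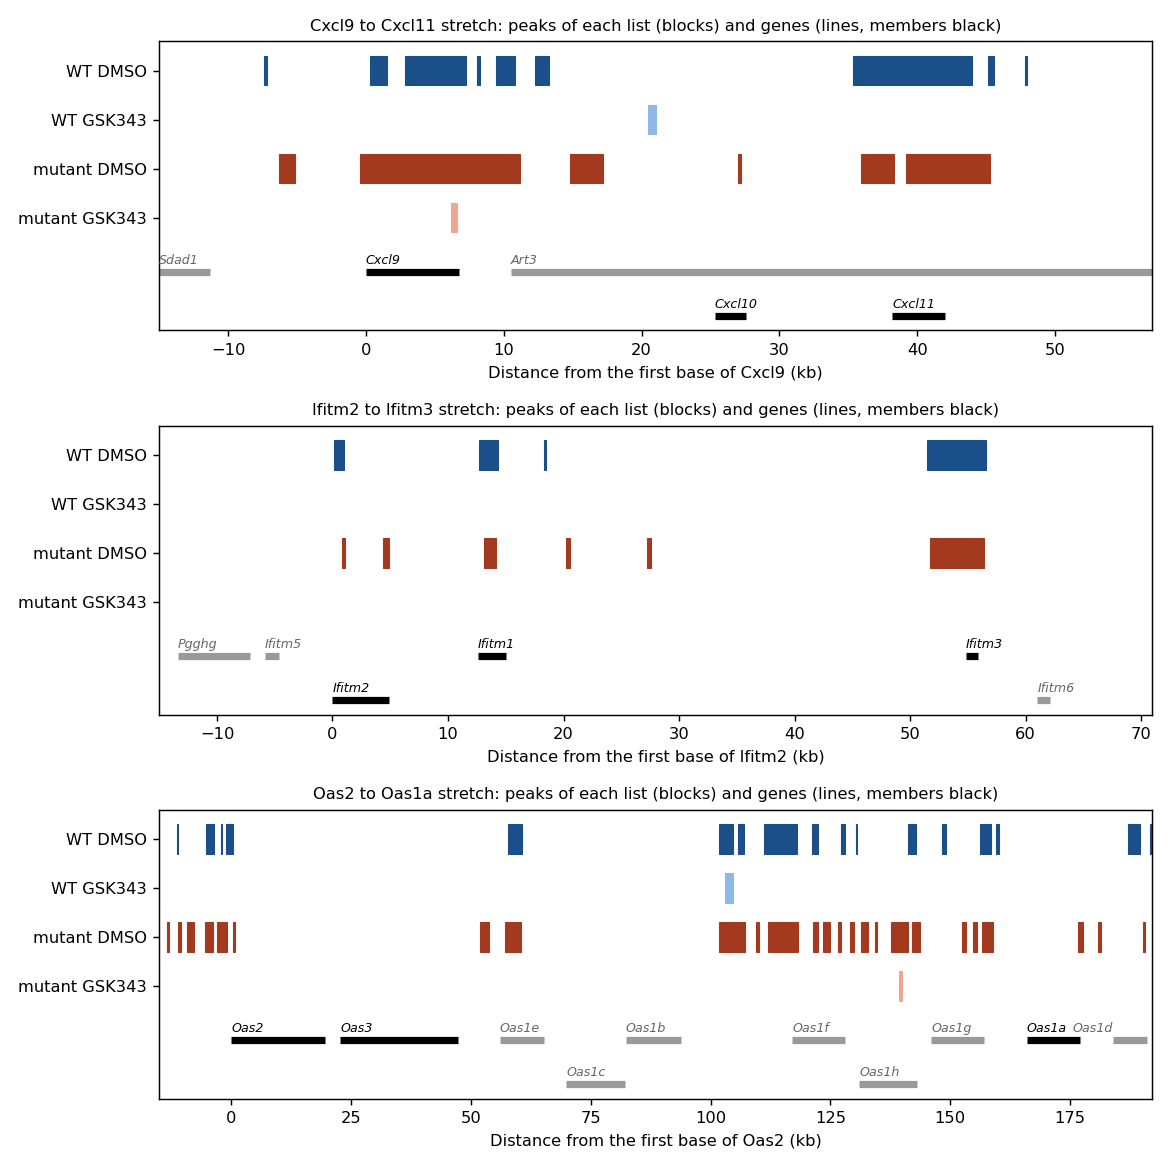
Blocks are the peaks of each list along 3 gene stretches, against the distance in kb from the first base of Cxcl9, Ifitm2 or Oas2, and lines below are genes (black for members). In the top panel DMSO peaks lie over Cxcl9 and Cxcl11 on both sides of Cxcl10, and the GSK343 rows hold 1 peak each in the top and bottom panels and none in the middle one.

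The IFITM proteins block fusion of enveloped viruses with cell membranes. Their 3 member genes lie within 55.9 kb on chromosome 7, and each was overlapped in both DMSO lists and in neither GSK343 list. Ifitm3 (141009590 to 141010744) was covered over 45.3% of its window in WT DMSO and 42.0% in mutant DMSO. Its peaks of 5.05 kb and 4.68 kb spanned the whole gene and its start site, with folds of 2.77 and 3.08. Ifitm1 (140967429 to 140969827) was covered by 15.1% and 8.36%, with a peak over the start site in both lists. Ifitm2 (140954837 to 140959686) was covered by 5.51% and 5.47%, and its peaks ended 0.143 kb and 0.003 kb from the start site. Ifitm1 and Ifitm3 had less coverage in the mutant than in the WT list, by the wider margin at Ifitm1. The Ifitm1 body was covered by 69.6% in WT and 43.2% in the mutant. At Ifitm2 the lists were nearly equal, with 0.818 kb of the window covered in WT and 0.813 kb in the mutant. The Ifitm2 promoter was overlapped by a peak in the mutant DMSO list and not in the WT one.

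The OAS enzymes make 2-5A, which activates RNase L to cut RNA. Of the 5 members, Oasl1 and Oasl2 had no peak in the 4 lists. Oas2 (chromosome 5, 120730333 to 120749886) held peaks over 10.1% of its window in WT and 12.7% in mutant cells under DMSO, mostly in the flank, and over 0% under GSK343. Oas1a (120896256 to 120907544) had peaks in mutant DMSO alone (8.92% of its window), and 1 of these, of 1.22 kb, lay over the start site. Oas3 (120753098 to 120777684) was covered by 1.21% in mutant DMSO, by a peak that lay 4.58 kb from the gene.

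The Oas1 paralogues beside these members ranged widely. Oas1f was covered over 41.0% of its window in WT DMSO and 55.2% in mutant DMSO, Oas1g over 24.1% and 27.8%, and Oas1h over 12.7% and 37.3%. Under GSK343 these were 0% except for 2.72% at Oas1h in mutant cells. Oas1e had 14.3% and 28.0% under DMSO and Oas1d 33.6% and 6.52%, while Oas1b and Oas1c had no peak in the 4 lists. Across the 177 kb from Oas2 to Oas1a, peaks covered 12.2% under DMSO and 0.91% under GSK343 in WT cells, and 19.1% and 0.339% in the mutant.

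The IFIT proteins bind viral RNA and limit its translation. Between the first base of Ifit2 and the last base of Ifit1, a stretch of 99.5 kb on chromosome 19 (34550550 to 34650009), none of the 4 lists had a peak. The coverage found at Ifit2 (2.90% in WT DMSO and 4.85% in mutant DMSO) and at Ifit1 (4.11% in WT DMSO) came from single peaks in the outer flanks. Those peaks were between 0.786 and 1.75 kb wide. Ifit3 had none, and its nearest WT DMSO peak was 36.5 kb away.

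ISG15 is a ubiquitin-like protein that is joined to other proteins, and USP18 removes it. Isg15 (chromosome 4, 156199424 to 156200818) was covered over 47.7% of its window under DMSO and 24.6% under GSK343 in WT cells, and 53.4% and 19.1% in the mutant. No peak touched the gene body in the 4 lists. The peaks lay over the neighbours Agrn on one side and Perm1 on the other, and the closest edge was 1.96 kb from the gene in WT DMSO and 1.46 kb in WT GSK343. The Isg15 promoter printed above thus lay in a gap between peaks. Within 2 kb of the gene the order of treatments in WT was the opposite, with 9.38 points more under GSK343. Usp18 (chromosome 6, 121245906 to 121270917) had 0.394% in mutant DMSO, from the edge of a peak 4.86 kb away. The ligase genes Herc6, Trim25 and Trim30a had no peak.

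Among the remaining genes, Xaf1, which encodes a pro-apoptotic factor (chromosome 11, 72301461 to 72313733), was covered by 22.2% under DMSO and 5.76% under GSK343 in WT cells, and 35.4% and 3.24% in the mutant. Its main peak lay past the end of the gene and over Fbxo39, 7.91 kb wide under DMSO in WT and 9.92 kb in the mutant, where it reached into the body. Rtp4 (chromosome 16, 23520219 to 23614222), which encodes a chaperone of membrane receptors, was covered by 15.1% under DMSO and 0% under GSK343 in WT cells, and 22.6% and 0.501% in the mutant. Its 6 WT DMSO and 9 mutant DMSO peaks all lay in the first part of the annotated record, and the last of them ended 52.7 kb and 52.4 kb before the record's upper end. The record spans 94.0 kb and has no promoter entry, so where these peaks lie relative to a start site is unknown. Isg20 (16.5%), Gbp2 (10.6%) and Lgals3bp (2.33%) had coverage in mutant DMSO only, from single peaks at least 2.10 kb outside the gene body. Gbp2 encodes an interferon-induced GTPase and Isg20 an exonuclease.

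Several well-known effectors had no peak in the 4 lists. They were Rsad2 (viperin) with its neighbour Cmpk2, Bst2 (tetherin, which holds budding virus at the cell surface), Parp14, Ifi44, Ifi35, Ifi27, Gbp3, Mx1 and Mx2. The Mx genes encode dynamin-like antiviral GTPases, and their reading frames are known to be broken in C57BL/6 mice. Psmb8, a subunit of the immunoproteasome, and Tap1, a subunit of the peptide transporter, had none either. Over the 21 members without a peak, the distance from the gene body to the nearest peak had under DMSO a median of 25.4 kb in WT and 21.7 kb in mutant cells. Under GSK343 it was 106 kb in WT and 124 kb in mutant cells. The GSK343 lists held fewer peaks in all, and no such median is given for protein-coding genes. The longer distances therefore cannot be read as particular to these members. The shortest distance in WT DMSO was 5.59 kb, at Ifi27, and the longest 292 kb, at Ifi44. The nearest DMSO peak to Psmb8 lay 121 kb away in both genotypes.

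Placed beside each other, the windows of members were less covered under GSK343 than under DMSO. Of the 12 windows overlapped in WT DMSO, 9 had no peak in WT GSK343 (75.0%), against 39.9% of such windows of protein-coding genes. Of the 18 overlapped in mutant DMSO, 13 had none in mutant GSK343 (72.2%), against 50.4%. A covered length at least 2-fold lower was found for 11 of 12 in WT and 18 of 18 in mutant cells, against 82.6% and 93.3% of protein-coding genes. The exception was Isg15 in WT. Of these windows 0 of 12 and 0 of 18 were more covered under GSK343, as were 0.478% and 0.104% of those of protein-coding genes. Cxcl10 in WT was the 1 member window (2.5%) overlapped under GSK343 and not under DMSO, against 0.176%, and in mutant cells there was none (0 of 40), against 0.157%. Summed over the members, covered length was 58.3 kb in WT DMSO and 5.96 kb in WT GSK343, a ratio of 0.102, against 0.381 for the length-matched genes and 0.321 for all protein-coding genes. In mutant cells it was 83.9 kb and 6.05 kb, a ratio of 0.0721, against 0.235 and 0.184. Rtp4 alone held 15.7 kb of the WT DMSO sum and 23.5 kb of the mutant DMSO sum.

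The difference in ratio from other genes depended on which peaks were counted. Among peaks with a fold of 3 or more, the WT ratio was 0.472 for members and 0.431 for protein-coding genes, and at a −log10 p-value of 5 or more it was 0.37 and 0.354, so in WT the members were no longer lower. The mutant ratios stayed apart, at 0.134 and 0.251 for the fold threshold and 0.102 and 0.218 for the p-value threshold.

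The peaks in members' windows had median folds near those of the whole lists. Peaks with a fold of 3 or more covered less of the members than of other genes, however. With those peaks alone, members' mean covered share was 1.65% in WT DMSO and 3.93% in mutant DMSO, against 5.29% and 6.7% over protein-coding genes. With all peaks it was 7.55% and 9.96%, against 8.4% and 11.4%. Under DMSO the median fold of peaks in members' windows was 2.56 in WT, against 2.48 for the whole list. In mutant cells it was 2.45, against 2.33. The median width of these peaks was 1423 bp in WT and 1950 bp in mutant DMSO, against 936 bp and 1125 bp. A wider peak is more likely to touch any window, and widths of peaks in other genes' windows are not given. The difference in width therefore cannot be read as particular to members. The WT GSK343 peaks had a median fold of 3.15, against 2.96, and a median width of 1261 bp, against 1052 bp. The mutant GSK343 peaks were below their list in both, with a median fold of 2.72, against 2.91, and a median width of 599 bp, against 915 bp. Under GSK343 5 distinct peaks in WT and 8 in mutant cells touched a member's window. In WT all 5 and in the mutant 6 of the 8 also lay over another protein-coding gene (Cdhr5, Agrn, Perm1, Art3, Fbxo39 or Masp1). Under DMSO this held for 9 of 27 peaks in WT and 10 of 35 in mutant cells. No member had a WT GSK343 peak in its body (0 of 40), against 21.4% of protein-coding genes, and the bodies of Cxcl9 and Rtp4 were the 2 of 40 (5.0%) with a mutant GSK343 peak, against 20.3%. In the DMSO lists 7 member bodies (17.5%) in WT and 11 (27.5%) in mutant cells were overlapped, against 31.8% and 34.6%.

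Between genotypes under DMSO, 14 of the 19 windows overlapped in either list (73.7%) had a greater covered length in mutant cells, against 85.6% of such windows of protein-coding genes. The other 5, Cxcl11, Ifitm1, Ifitm2, Ifitm3 and Ifit1, had a smaller one (26.3%, against 12.9%). At Ifitm2 it was barely smaller, at 0.813 kb against 0.818 kb in WT, and the 3 IFITM genes lie within 55.9 kb of each other. The summed covered length was 1.44 times as high in the mutant list, against 1.34 times for the length-matched genes and 1.45 times for all protein-coding genes. For members the ratio was 2.17 at a −log10 p-value of 5 or more and 2.11 at a fold of 3 or more. No such ratio is given for other genes at these thresholds. The mutant list was also longer as a whole, with 134 Mb of peaks against 84.3 Mb. Whether depth, genotype or the replicates behind each list account for this cannot be told apart. A window overlapped in mutant DMSO alone of the DMSO lists was found for 7 members (17.5%), against 6.81% of protein-coding genes, and in WT DMSO alone for 1 (2.5%), against 1.44%. Several of these 7 overlaps were small, with covered shares of 0.394% at Usp18, 1.21% at Oas3, 1.89% at Cxcl10 and 2.33% at Lgals3bp. The largest was 16.5%, at Isg20. Of 93 other interferon pathway genes, described below, 5 (5.38%) were overlapped in mutant DMSO alone and 5 (5.38%) in WT DMSO alone. Under GSK343 the mutant to WT ratio of summed covered length was 1.02, against 0.826 for the length-matched and 0.832 for all protein-coding genes. Its direction turned with the peaks counted: it was 0.60 at the q-value, p-value and fold thresholds, 0.672 without peaks under 1 kb and 0.941 with a flank of 2 kb. Of the 6 windows overlapped in either GSK343 list, those of Irf7, Cxcl9 and Rtp4 were more covered in the mutant list (3 of 6, against 34.1%) and those of Isg15, Xaf1 and Cxcl10 less (3 of 6, against 65.8%). Cxcl9 and Rtp4 were overlapped in the mutant list alone (5.0%, against 2.22%) and Cxcl10 in the WT list alone (2.5%, against 4.11%).

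Other genes of the interferon pathway, a list of 93, had lower mean covered shares than the 40 members in each list. Their means were 3.40% in WT and 5.07% in mutant cells under DMSO, and 0.513% and 0.358% under GSK343. In WT DMSO 29 of 93 (31.2%) were overlapped, against 43.5% of protein-coding genes, and 10 (10.8%) in WT GSK343, against 26.3%. In mutant cells 29 (31.2%) were overlapped under DMSO, against 48.9%, and 11 (11.8%) under GSK343, against 24.4%. In at least 1 of the 4 lists 34 of the 93 (36.6%) were overlapped, against 50.4% of protein-coding genes. Of the 12 receptors, kinases and inhibitors, 10 had no peak in the 4 lists, including Ifnar1 and Ifnar2 (the type I receptor chains), Ifngr1, Jak1 and Tyk2. The 2 others were Ifnlr1, the receptor chain for interferon lambda (12.1% under DMSO and 0% under GSK343 in WT cells, and 23.1% and 3.27% in the mutant), and Socs3, an inhibitor of cytokine signalling (33.4%, 12.7%, 42.1% and 1.54%). Among the other interferon regulatory factor genes, Irf2, Irf3, Irf5 and Irf8 had no peak in the 4 lists. In a further group of 36 interferon-induced genes, 25 had no peak, and Slfn5 was the most covered in mutant DMSO at 56.7%, with 21.5% in WT DMSO and 0% under GSK343. For scale, 10 developmental regulators that include Pax6 and Sox2 were covered by means of 89.5% under DMSO and 64.0% under GSK343 in WT cells, and 92.2% and 60.1% in the mutant.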

How the data were processed

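H3K27me3 ChIP-seq of mouse B cells was used as 4 deposited lists of broad peaks, 1 per genotype and treatment, matched to groups by the prefix of the peak names. The names carry a folder name for pooled duplicates. The prefix of the mutant peaks has a trailing 1, so those lists may rest on replicate 1. The submitters' processing notes name Bowtie2 2.4.2, SAMtools 1.12, MACS2 2.2.7.1, bedtools 2.29.2 and the build mm10 (GRCm38), without their settings. Peaks on a blacklist had been removed, per the file names. The fold of each peak is the authors' ratio of ChIP over background, and the −log10 p-value and −log10 q-value are the authors' too. The peak score, as deposited, and peak positions are other columns of the authors' lists, and the score was not used. No depth per sample is given in these files, so the precision of a covered share is unknown.

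Covered length per window was computed with Python 3.11.15, numpy 2.4.6 and pandas 2.3.3, with RefSeq genes and promoters of GRCm38.p6. The code gave the right length in 1000 of 1000 simulated windows, and the same length as bedtools 2.31.1 in 86524 of 86524 gene windows. Values of single genes in the related and marker lists are given for a few, and some are not reported here. Members and lists were chosen with earlier results of these data known. All 40 members are reported, those with a peak by their values, and the promoters printed for members without a peak were picked after the values were seen.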

Additional observations from a re-analysis of the deposited data

Results flagged for a closer look

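In 3 members the lists of the 2 genotypes, or of the 2 treatments, moved in opposite directions. Each group has 1 list, so these differences were not tested. At Cxcl10 the covered share was 5.0 points higher under GSK343 than under DMSO in WT cells, and differed by -1.89 points in mutant cells. Set by treatment, the mutant minus WT difference at Cxcl10 was 1.89 points under DMSO and -5.0 points under GSK343. At Isg15 the mutant minus WT difference was 5.70 points under DMSO and -5.50 points under GSK343. At Xaf1 it was 13.2 points under DMSO and -2.52 points under GSK343. The peaks behind the Cxcl10 values were 613 bp and 232 bp wide, and those at Isg15 under GSK343 lay outside the gene body.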

How the results depend on the processing

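No paired analysis was possible because there is 1 peak list per genotype and treatment, with no values per replicate, and no replicate could be left out. Of 11 alternative settings 10 were planned, and the restriction to protein-coding members was added after seeing the data. Over 12 summary results they gave 115 values, of which 63 stayed within 1.5 times the value reported, 47 moved further and 5 reversed. With member windows merged, and with protein-coding members only, none moved further or reversed. For single members 101 of 246 differences between treatments stayed, 144 moved (94 of them to 0, where a setting left no peak) and 1 reversed, Isg15 in WT with a flank of 2 kb (9.38 points against -23.2). With 100 or 500 in place of 200 matched genes the matched means stayed within 1.5 times. Apart from what a filter removes by construction, the cause of a move was not tested.

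Values follow the order WT DMSO, WT GSK343, mutant DMSO, mutant GSK343. Members overlapped numbered 7, 0, 11 and 2 by gene body, 3, 0, 5 and 0 by promoter, and 2 (WT GSK343) and 3 (mutant GSK343) with a 2 kb flank. They were 5, 3, 6 and 2 at a −log10 p-value of 5 or more, and 3, 3, 4 and 2 at a fold of 3 or more. Windows covered by 10% or more numbered 1 in WT GSK343, and in the mutant 10 under DMSO and 2 under GSK343. The same number of top peaks left 10 members overlapped in mutant DMSO (25.0%, against 33.6% of protein-coding genes). In mutant GSK343 2 were overlapped at a q-value up to 0.01 (5.0%, against 17.7%) and 2 without peaks under 1 kb (5.0%, against 17.2%). Mean covered shares were 1.98%, 0.875%, 4.09% and 0.486% at the p-value threshold, 1.65%, 0.875%, 3.93% and 0.486% at the fold threshold, and 4.81% in WT DMSO with equal peak numbers. Under GSK343 they were 0% and 0.19% by gene body, and 0.45% and 0.235% with a 2 kb flank. In mutant GSK343 the mean was 0.486% at the q-value threshold and 0.639% with peaks of at least 1 kb.

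The GSK343 to DMSO ratio of covered length was 0 in WT and 0.0258 in mutant cells by gene body, 0.0461 and 0.0321 with a 2 kb flank, 0.472 and 0.134 at the fold threshold, and 0.191 and 0.119 with equal peak numbers. It was 0.37 in WT at the p-value threshold, and in mutant cells 0.0407 at the q-value threshold and 0.0408 with peaks of at least 1 kb. The mutant to WT ratio under DMSO was 2.17 at the p-value threshold. Under GSK343 that ratio reversed, from 1.02 to 0.941 with a 2 kb flank, to 0.60 at the q-value, p-value and fold thresholds, and to 0.672 with peaks of at least 1 kb.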

Other observations

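Among the related interferon genes, Ifi27l2b, a paralogue next to Ifi27 on chromosome 12 (103450898 to 103457223), went against the prevailing direction in both genotypes. Peaks covered 1.94% of its window in DMSO and 3.68% in GSK343 for WT cells, and 0% and 5.67% for the mutant. It was picked out after the values were seen. Of windows of protein-coding genes overlapped in WT DMSO, 0.478% had a greater covered length in WT GSK343. In mutant cells 0.157% of protein-coding genes were overlapped under GSK343 and not under DMSO.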
